A study of Mus musculus with 2 samples.

Results

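The Cyp2a genes are the 4 cytochrome P450 genes Cyp2a4, Cyp2a5, Cyp2a12 and Cyp2a22 of the mouse, chosen by their symbols among the 24054 genes of a liver RNA-seq table. The choice was made with their measured levels in KO and WT known, so their changes are given as a description and no test was made of them. Liver RNA came from male C57BL/6 mice aged 8 to 12 weeks, kept under a light cycle of 14 h light and 10 h dark with food at all times. The KO mice were whole-body Pgrmc1 knockouts (Pgrmc1 -/Y, the gene being X-linked), obtained by removing the floxed exons 1 and 2 with a Sox2-Cre driver, which recombines in the early embryo and so in all tissues. The floxed allele was built in C57BL/6N with a neomycin cassette, while the Cre line is a B6.Cg line. Whether the WT mice were littermates, which Cre or floxed alleles they carried and the hour of harvest are not given in the sources used here.

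RNA of 5 mice was pooled in equal mass for each genotype, and each pool was sequenced as 1 library, so there are 2 libraries and no replicates. How far single mice differed was not measured, and every interval below covers counting error only. About 22086688 reads in KO and 29710410 in WT were estimated on the genes of the authors' second table. TPM is each gene's share of the transcript pool corrected for transcript length, so TPM values can be compared between genes. Pgrmc1, which checks the labels, was at 0.68 TPM in the KO pool and 949.49 TPM in the WT pool. Hepatocyte markers identified the tissue, with 10 of 10 markers above 1 TPM and a summed level of 86448 TPM in the KO pool and 89386 TPM in the WT pool. In bulk liver, fewer cells of a type and less RNA per cell cannot be told apart.

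Cytochromes P450 are heme enzymes of the endoplasmic reticulum that insert an oxygen atom into their substrates. The Cyp2a subfamily arose by repeated duplication, and its members act on small planar compounds such as coumarin and nicotine and on steroids. In mouse liver Cyp2a5 is the coumarin hydroxylase, Cyp2a4 is a steroid hydroxylase known to be higher in females, and Cyp2a12 hydroxylates testosterone and bile acids. Pgrmc1 is a heme-binding membrane protein that binds P450 enzymes, and the study compared the transcripts of KO and WT livers to ask whether P450 genes change in its absence.

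All 4 Cyp2a genes lie on chromosome 7 of GRCm38.p6 (the mm10 assembly) within 729627 bases, among other Cyp2 genes. By RefSeq coordinates Cyp2a4 (Entrez 13086) runs from 26307192 to 26315088 on the plus strand and Cyp2a5 (Entrez 13087) from 26835339 to 26843264 on the plus strand. Cyp2a22 (Entrez 233005) runs from 26931631 to 26939413 on the minus strand and Cyp2a12 (Entrez 13085) from 27029090 to 27036818 on the plus strand. Each gene has 9 exons in GENCODE, and each encodes 492 or 494 residues. By sequence they form 2 pairs, Cyp2a4 with Cyp2a5 and Cyp2a12 with Cyp2a22. The proteins of Cyp2a4 and Cyp2a5 are identical at 97.6% of residues, with 12 of 494 different, and those of Cyp2a12 and Cyp2a22 at 94.3%, with 28 of 492 different. Across the pairs, protein identity was 70.4% to 72.5%.

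Reads of Cyp2a4 and Cyp2a5 can be told apart only by scattered bases, and 23 of 1482 coding bases differ, of which 12 change a residue. The stretch printed here, which spans the junction of exons 4 and 5, was chosen because no other 100 coding bases hold more differences. It holds coding bases 570 to 669, counted from 1 at the A of the start codon, and the capitals mark the bases that differ between both copies:
Cyp2a4: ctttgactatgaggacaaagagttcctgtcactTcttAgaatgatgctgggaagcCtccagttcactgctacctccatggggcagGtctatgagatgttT
Cyp2a5: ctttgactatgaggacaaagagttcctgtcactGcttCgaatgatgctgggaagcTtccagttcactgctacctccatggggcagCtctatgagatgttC
The stretch has 5 differences, T603G, A607C, C625T, G655C and T669C, each written with the base of Cyp2a4 first and that of Cyp2a5 last. Of these, 2 change a residue, C625T in codon 209 and G655C in codon 219. Residue 209 is known from mutagenesis of these enzymes to set the preference for coumarin or for steroids.

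The promoters of the pair are as similar as the coding parts. The 250 bases before the start of each gene, from a table of RefSeq promoters on GRCm38.p6, are printed from 5′ to 3′ because the 4 capitals in each are the only positions at which they differ:
Cyp2a4, chr7:26306942-26307191, plus strand: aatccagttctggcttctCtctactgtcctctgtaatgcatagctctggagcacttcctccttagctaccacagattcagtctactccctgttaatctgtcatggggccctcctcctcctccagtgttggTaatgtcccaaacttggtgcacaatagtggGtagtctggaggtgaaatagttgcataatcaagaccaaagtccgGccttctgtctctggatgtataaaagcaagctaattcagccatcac
Cyp2a5, chr7:26835089-26835338, plus strand: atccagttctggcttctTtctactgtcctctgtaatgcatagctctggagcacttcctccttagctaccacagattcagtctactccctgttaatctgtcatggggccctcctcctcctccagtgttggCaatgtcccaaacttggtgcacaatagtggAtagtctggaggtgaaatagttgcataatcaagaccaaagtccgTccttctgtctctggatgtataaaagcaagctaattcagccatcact
Over 249 aligned bases the identity was 98.4%, with 4 mismatches and 0 gaps. The promoters of Cyp2a12 and Cyp2a22 in that table are less alike, with an identity of 89.1% over 239 aligned bases, 19 mismatches and 7 gaps. For Cyp2a22 the table uses a start that lies 27 bases inside the gene interval given above, so its window includes those 27 bases.

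Cyp2a4 was at 0.22 TPM in the KO pool and 70.88 TPM in the WT pool. Its transcript was near absence in the KO pool and among the well expressed transcripts of the WT pool, at rank 14287 of 24054 genes in KO and rank 1344 in WT. The change, log2((KO TPM + 1)/(WT TPM + 1)), was -5.88, a fold of 0.0170 on a scale that understates the change of a low value. The authors' means, which are estimated reads divided by a size factor, were 4.43 in KO and 1773 in WT. They correspond to 3.81 estimated reads in KO and 2060 in WT, which gives a log2 ratio of -8.65 with a 95% counting interval of -10.45 to -7.22. Among the 11623 genes that averaged at least 1 TPM over both libraries, Pgrmc1 was the 1 gene with a larger fall.

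Cyp2a5, the coumarin hydroxylase, was at 135.95 TPM in the KO pool and 204.33 TPM in the WT pool. The KO level was the lower one and remained well above that of most liver transcripts, at rank 791 in KO and 552 in WT. Its change was -0.58, a fold of 0.667. The log2 ratio of the authors' means was -0.57 (95% counting interval -0.64 to -0.51) on 2959 estimated reads in KO and 5944 in WT. Cyp2a5 fell by 68.38 TPM where Cyp2a4 fell by 70.66 TPM, so the amounts were close although Cyp2a5 started from a higher WT level. Both amounts depend on how reads were divided between these near-identical copies.

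Cyp2a12, the steroid and bile acid hydroxylase and the most abundant Cyp2a transcript, was at 400.07 TPM in the KO pool and 405.76 TPM in the WT pool. Both libraries held nearly the same level, with a change of -0.02. The counting interval of the log2 ratio of means ran from -0.05 to 0.04 and holds 0, on 8422 and 11411 estimated reads. Its copy Cyp2a22 was at 2.06 TPM in the KO pool and 2.77 TPM in the WT pool, the lowest WT level of the subfamily. Cyp2a22 changed by -0.30, and its interval from -0.90 to 0.06 also holds 0, on 58.74 and 106.16 estimated reads. A change of Cyp2a22 was therefore not detectable at this depth.

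The order of the 4 transcripts by level was Cyp2a12, Cyp2a5, Cyp2a4 and Cyp2a22 in WT. In KO it was Cyp2a12, Cyp2a5, Cyp2a22 and Cyp2a4, so that Cyp2a4 moved from the third to the last place. The plot of Cyp2a levels by library shows the long gap of Cyp2a4 beside the short ones of its relatives.

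**Figure D1:**
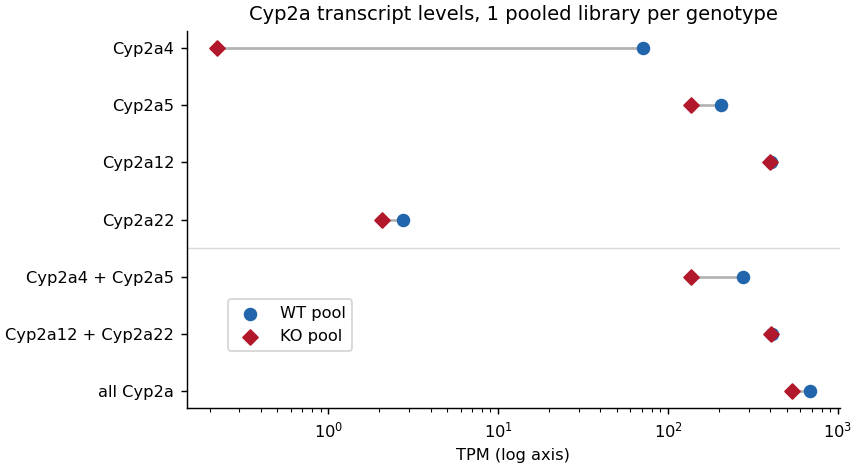
Transcript levels of the 4 Cyp2a genes and of their sums in the KO pool (red diamonds) and the WT pool (blue circles), in TPM on a log axis, with 1 library per genotype and no error bars. Cyp2a4 stands at 0.22 TPM in KO against 70.88 TPM in WT, whereas the markers of Cyp2a12 lie on top of each other.

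For counts of genes, up was a fold of at least 1.4 and down a fold of at most 0.6 on the TPM + 1 scale, the folds used by the study. Of the 4 Cyp2a genes, 1 was down (Cyp2a4) and 0 were up, where 0.301% of all 11623 genes were down and 1.09% were up. Since these values chose the genes, nothing is read from that count. Cyp2a4 is far inside the threshold, and Cyp2a5, the next member, is just outside it with a fold of 0.667. All 4 members lay below 0, while the median change of the 11623 genes was -0.01. Among the 6235 genes that averaged at least 10 TPM, the 5th and 95th percentiles were -0.25 and 0.20, and 28 (0.449%) had a change at or below that of Cyp2a5. The change of Cyp2a12 was closer to the middle, with 13.9% of these genes at the same distance from 0 or nearer.

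**Figure D2:**
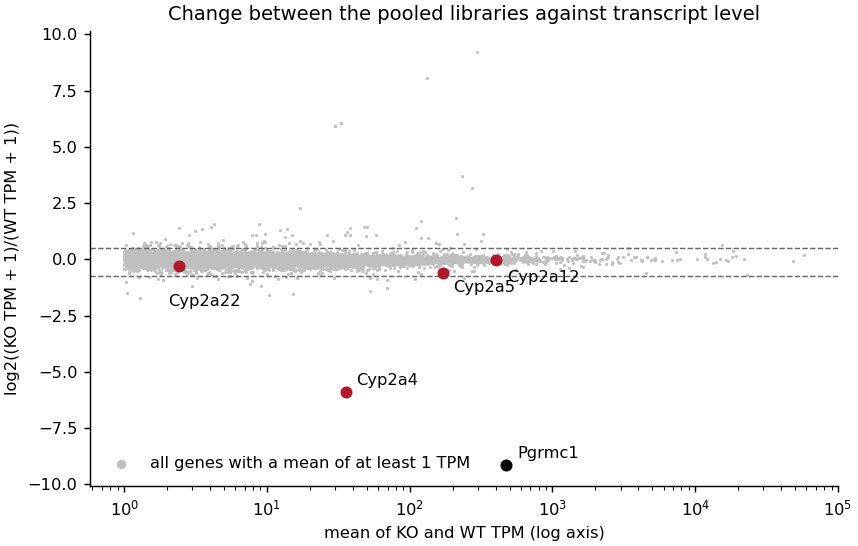
Change of each gene on the log2(TPM + 1) scale against its mean TPM over both libraries (log axis), for genes that averaged at least 1 TPM, with the Cyp2a genes in red and Pgrmc1 in black. Dashed lines mark folds of 1.4 and 0.6. Cyp2a4 at -5.88 lies apart from the band of other genes, Cyp2a5 at -0.58 lies just above the lower line and Cyp2a12 at -0.02 lies inside the band.

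The genes whose change was nearest to that of Cyp2a4, among genes that averaged at least 10 TPM, were Pgrmc1 (-9.14), Snora81 (-1.59) and Rpl30 (-1.56). Even the nearest was 3.26 away on the log2 scale, so no gene of that level shared the size of the fall of Cyp2a4. Cyp2a5 had close company, with Scd1 at -0.58 (3593 TPM in the KO pool and 5380 TPM in the WT pool), Gin1 at -0.59 and Lyve1 at -0.60. Likeness here is the distance between changes over 2 libraries and says nothing of shared control.

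Because a read pair that fits both copies of a pair is divided between them by RSEM, the sums are less dependent on that division than the single values. Cyp2a4 and Cyp2a5 together were at 136.17 TPM in the KO pool and 275.21 TPM in the WT pool, 50.5% lower in KO. The change of their summed TPM, with 1 TPM added to each sum, was -1.01. The 95% counting interval of the log2 ratio of their summed means ran from -1.06 to -0.94. The KO to WT ratio of the sum, 0.495, is also the value that Cyp2a5 would have if all transcripts of the pair were counted to it in both libraries, against 0.667 for Cyp2a5 as deposited.

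Cyp2a12 and Cyp2a22 together were at 402.13 TPM in the KO pool and 408.53 TPM in the WT pool, 1.57% lower in KO, with an interval of -0.05 to 0.03 that holds 0. The summed level thus fell in the first pair and stayed close to its WT value in the second. All 4 genes summed to 538.3 TPM in the KO pool and 683.74 TPM in the WT pool, 21.3% lower. Without Cyp2a4 the other 3 summed to 538.08 TPM and 612.86 TPM, 12.2% lower.

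The make-up of Cyp2a RNA differed accordingly. Cyp2a4 made up 10.4% of Cyp2a TPM in WT and 0.0409% in KO. Cyp2a5 made up 29.9% in WT and 25.3% in KO, and Cyp2a12 made up 59.3% in WT and 74.3% in KO. The summed level fell by 145.44 TPM, and 48.6% of that lay in Cyp2a4 and 47.0% in Cyp2a5. By the deposited values, the steroid hydroxylase and the coumarin hydroxylase thus contributed nearly equal amounts of RNA to it. That split depends on how RSEM divided reads between these near-identical copies. Within the pair, the level of Cyp2a4 relative to Cyp2a5 was 0.347 in WT and 0.00162 in KO.

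The estimated reads show how RSEM treated the copies. None of the 4 genes had a whole number of estimated reads in either library, with distances to the nearest whole number from 0.153 to 0.260. The sum of Cyp2a4 and Cyp2a5 was 2963.00 in KO and 8004.01 in WT, within 0.008 of whole reads, and that of Cyp2a12 and Cyp2a22 was 8481.00 and 11517.01, within 0.006. A sum across the pairs, Cyp2a5 with Cyp2a12, was 0.448 and 0.375 away from a whole number, and Cyp2a4 with Cyp2a12 was 0.068 and 0.076 away. Of the sums formed, those within a pair were the nearest to whole reads in both libraries.

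The transcripts allow most but not all fragments to be placed. The transcripts of Cyp2a4 (1738 bases) and Cyp2a5 (2013 bases) were identical at 98.2% of aligned positions, with 30 mismatches, 1 gap position and a longest identical run of 216 bases. Of the windows of 100 bases, the length of 1 read, 11.2% were identical between them and 77.0% held at most 2 differences. Differences occurred in every exon, from 1 in exons 6 and 7 to 8 in exon 9. Some windows of both genes are also found in Cyp2a21-ps, a pseudogene of the same region, for which the TPM table has no row under that symbol.

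For Cyp2a12 and Cyp2a22 the transcripts were 96.1% identical, 6.83% of windows were identical and 37.5% held at most 2 differences. The second pair is thus easier to separate than the first. Its abundant member has 405.76 TPM beside 2.77 TPM of its copy in WT, so a small share of misplaced Cyp2a12 reads would weigh on Cyp2a22, and the values of Cyp2a22 are uncertain for that reason.

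**Figure D3:**
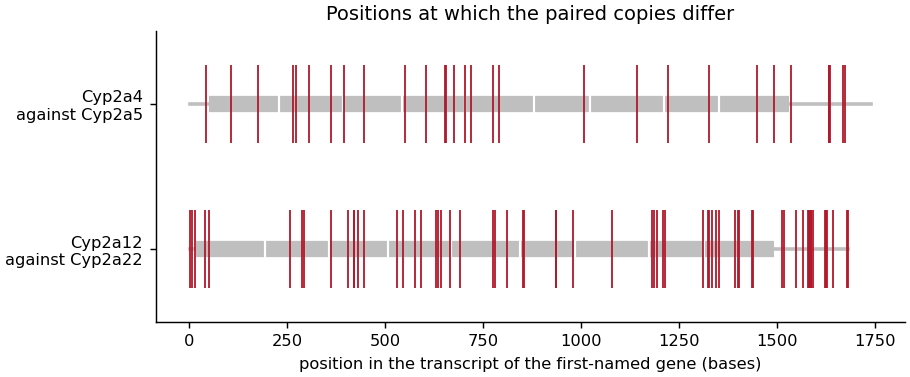
Positions (red lines) at which the transcript of Cyp2a4 differs from that of Cyp2a5, and that of Cyp2a12 from that of Cyp2a22, along the transcript of the first-named gene in bases. Thick grey bars are the coding part and white gaps are exon boundaries. The first pair has 23 coding differences spread over all 9 exons and the second has 45.

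Pooling limits what the level of Cyp2a4 says of single mice, but only in one direction. With equal contributions and the 0.22 TPM of the KO pool taken as exact, any 1 of its 5 mice had at most 1.1 TPM. That is 1.55% of the WT pool level. The 0.22 TPM rests on 3.81 estimated reads, which RSEM divided between near-identical copies. The KO to WT ratio of means for Cyp2a4 was 0.00250 with an upper counting limit of 0.00673, so the bound for 1 mouse could be higher. A single KO mouse at the WT pool level would alone have put the KO pool at 14.2 TPM. The WT pool is less bounded, since 1 mouse at 354.4 TPM and 4 at none would give the same 70.88 TPM. The fall of Cyp2a5 and the near equality of Cyp2a12 cannot be divided among mice in this way.

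In the promoters, 13 motifs were searched on both strands of the 250 bases, and the share of all 32851 RefSeq promoters that hold each was counted. The TATA box TATAAA was found in all 4 Cyp2a promoters, 28 bases before the start in Cyp2a4, 29 in Cyp2a5, 39 in Cyp2a12 and 28 in Cyp2a22, each counted from the start in the promoter table. It is held by 12.4% of all promoters. The C/EBP motif TTNNGCAA was found in Cyp2a4 at 70 bases and in Cyp2a5 at 71 bases before the start, and in 9.56% of promoters. Both matches lie in parts of the printed sequences where the copies do not differ.

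The NFI half-site TTGGCA was found in Cyp2a5 alone, 125 bases before the start, in a window that includes 1 of the 4 capitals, and in 12.3% of promoters. CCAAT was found in Cyp2a12 alone, 110 bases before the start, and in 33.8% of promoters. The other 9 motifs had no match in these windows. They were the D-boxes TTATGTAA (0.819% of promoters) and TTACGTAA (0.113%), CAAAGTCCA of HNF4A (0.384%), the nuclear receptor half-site AGGTCA (14.0%), the E-box CACGTG (6.02%), the AHR core GCGTG (28.2%), the STAT5 motif TTCNNNGAA (7.02%), and ATTGATT (2.61%) and ATTGACT (1.61%) of ONECUT1. GCGTG can overlap CACGTG, and a match is a description of letters rather than a site.

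Along chromosome 7, the genes around the Cyp2a genes did not share the fall of Cyp2a4. Apart from Pgrmc1, no gene averaging at least 10 TPM did. Within 500000 bases on either side of the 4 genes, 14 other genes averaged at least 1 TPM. Of these, 1 was up and 0 were down, beside 1.09% and 0.301% of all genes. With so few genes, 0 down is near the share of all genes, and nothing is read from it. The median change of these 14 genes was -0.06 and the lowest was that of Ltbp4 (-0.23), a gene named after its value was seen. Of the 9 other Cyp2 genes of the cluster, 2 reached 1 TPM. Cyp2b10, the classic target of the receptor CAR, was at 18.24 TPM in the KO pool and 8.70 TPM in the WT pool, a change of 0.99. Cyp2f2, an enzyme of naphthalene activation and the neighbour of Cyp2a12, was at 688.69 TPM and 756.15 TPM, a change of -0.13. The nearest relatives Cyp2a4 and Cyp2a5 are themselves 520250 bases apart.

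**Figure D4:**
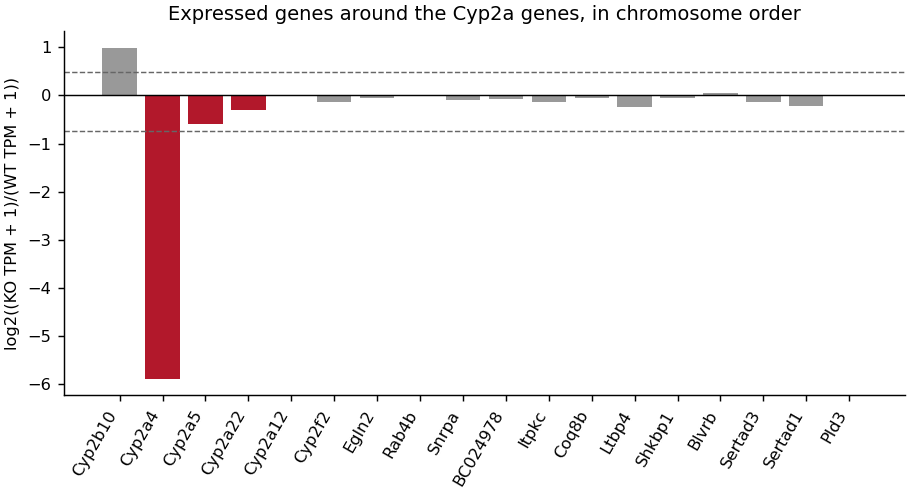
Change on the log2(TPM + 1) scale of the 18 genes that averaged at least 1 TPM around the Cyp2a genes, in their order along chromosome 7 and not to distance, with Cyp2a genes in red. Dashed lines mark folds of 1.4 and 0.6. Cyp2a4 at -5.88 has the 1 bar below the lower line, Cyp2b10 at 0.99 the 1 bar above the upper, and the bar of Cyp2a12 at -0.02 is too short to see.

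Among P450 genes, Cyp2a4 and Cyp2a5 stood at the low end, and Cyp2a22 and Cyp2a12 within the range of the others. The other 56 P450 genes that averaged at least 1 TPM had a median change of 0.09. Of them 11 were up and 0 were down, beside 1.09% and 0.301% of all genes. The count up lies above the share of all genes and the 0 down lies near it. The lowest of these 56 was Cyp39a1, an oxysterol hydroxylase, at -0.34, so Cyp2a4 and Cyp2a5 lay below each of them, which describes genes chosen with these values known. The share of P450 TPM held by the Cyp2a genes was 2.58% in KO and 3.70% in WT. By summed TPM, the KO to WT ratio was 0.787 for Cyp2a, 0.911 for Cyp2f, 0.954 for Cyp2j, 1.05 for Cyp2d and 2.08 for Cyp2b, and Cyp2c genes summed to 4129 TPM in KO against 3433 TPM in WT. Cyp2a12 kept rank 13 among P450 genes in both libraries, Cyp2a5 went from rank 20 in WT to 26 in KO and Cyp2a4 from 33 to 72.

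Factors known to act on the Cyp2a genes were described as a list of 25 regulators, all averaging at least 1 TPM. None was up and none was down, 12 lay above 0 and 13 below, and the median was -0.01. Beside 1.09% up and 0.301% down of all genes, a count of 0 in so short a list is near the share. Nothing is read from it, here or for each 0 in the lists below. The lowest regulator was Foxa2, a pioneer factor of liver genes, with a change of -0.48. It was at 14.70 TPM in the KO pool and 20.96 TPM in the WT pool. The highest was Nfil3, a repressor at D-boxes, at 30.10 TPM and 25.65 TPM, a change of 0.22.

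The regulators named next were picked after their values were seen, for their known roles at Cyp2a4 and Cyp2a5. Dbp and Tef, activators at D-boxes that give Cyp2a4 and Cyp2a5 a daily rhythm, changed by -0.35 each. They went from 25.92 to 20.05 TPM and from 44.79 to 34.99 TPM in KO. Hlf, which binds the same D-boxes, changed by only -0.08, from 10.19 to 9.60 TPM in KO. Hnf4a, an activator of Cyp2a5, changed by -0.08, and Nr1i3, which encodes CAR, by 0.20. The part of any of these in the levels of Cyp2a4 and Cyp2a5 was not tested.

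Since Cyp2a4 is higher in female than in male liver, genes of the growth hormone axis and of sex-biased expression were set beside it. Of 27 female-biased genes other than Cyp2a4, 9 reached 1 TPM, with 2 up, 0 down and a median of 0.09. Of all genes, 1.09% were up and 0.301% down. The genes up were Cyp2c69 (13.66 TPM in the KO pool and 3.90 TPM in the WT pool, a change of 1.58) and Cyp2c40 (53.29 and 33.68 TPM, 0.65), whose reads may be shared with close Cyp2c copies, and the lowest was Cyp39a1. The other 18 averaged under 1 TPM, with no single value above 1.15 TPM, and 12 were higher and 6 lower in KO. Examples named after their values were seen go both ways. Cyp2b9 was at 0.08 TPM in KO against 0.03 TPM in WT and Cyp3a41a at 0.33 against 0.21 TPM, whereas Cyp2b13 was at 0.04 against 0.10 TPM and Slc22a27 at 0.21 against 0.48 TPM. Ntrk2, at 0.18 against 1.15 TPM, was the 1 gene of these 18 past the fold for falls. Since these 18 were set apart by their low averages, the 70.88 TPM of Cyp2a4 in WT had to stand above them. Nothing is read from that difference.

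Of 21 male-biased genes, 2 were up and 0 down, beside 1.09% and 0.301% of all genes, with a median of -0.00. Moxd1 (1.45) and Susd4 (0.62) were up, and Mup20, one of many near-identical major urinary protein genes and uncertain for that, was lowest at -0.71. In the growth hormone axis, 12 of 13 genes reached 1 TPM, with a median of 0.13. Of these, 2 were up and 1 was down, beside the same shares of all genes. The list is short and was written with results of these data known, so nothing is read from its counts. Bcl6, a repressor of female-biased genes in male liver, was at 22.55 TPM in the KO pool and 13.40 TPM in the WT pool (0.71). Socs2 was at 17.97 and 10.58 TPM (0.71) and Cish at 3.78 and 6.98 TPM (-0.74), both being targets of STAT5 that restrain the signal. Their relation to the level of Cyp2a4 was not tested.

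The substrates of the Cyp2a enzymes point to further lists. Of 28 genes of steroid metabolism, 26 reached 1 TPM, with a median of 0.01 and with Cyp39a1 lowest. Of these, 1 was up (Cyp3a11, 0.49) and 0 were down, beside 1.09% and 0.301% of all genes. Of 10 genes of bilirubin handling, to which Cyp2a5 belongs by its oxidation of bilirubin, 0 passed in either direction. They ran from -0.25 for Hmox1, the heme oxygenase, to 0.27 for Ugt1a1, the bilirubin transferase, with a median of -0.00.

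CAR and NRF2 are both known to induce Cyp2a5, and their other targets were listed as well. Of 29 CAR targets, 27 reached 1 TPM, with 4 up, 0 down and a median of 0.01. Those up were Cyp2b10 (0.99), Cyp2c54 (0.50), Cyp3a11 (0.49) and Cyp2c55 (0.49), and the lowest was Gstm3 (-0.67), a glutathione transferase. Of 14 NRF2 targets, which answer oxidative stress, 12 reached 1 TPM, with 0 up and 0 down. Of these 12, 11 lay below 0, with a median of -0.04. The median of all genes that averaged at least 1 TPM was -0.01, also below 0, and nothing is read from the signs. The 12 targets ran from Gstm3 to Txnrd1 (0.00), the thioredoxin reductase. Over the 9 lists, 127 different genes reached 1 TPM, of which 10 were up (7.87%) and 1 was down (0.787%), beside 1.09% and 0.301% of all genes. The lists were written with results of these data known.

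**Figure D5:**
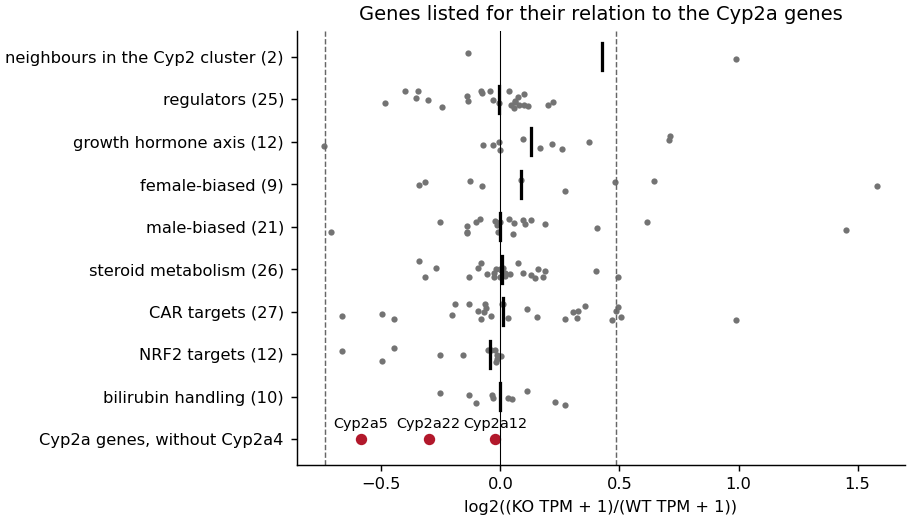
Change on the log2(TPM + 1) scale of the members of each list averaging at least 1 TPM (grey points, number in parentheses, vertical scatter without meaning), with the median of each list as a black bar and Cyp2a5, Cyp2a22 and Cyp2a12 in red in the lowest line. Dashed lines mark folds of 1.4 and 0.6. Cyp2a4 at -5.88 is off this scale and not drawn, and Cyp2a5 at -0.58 lies to the left of every regulator.

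Tissues other than liver also transcribe Cyp2a5, among them kidney and the airway and olfactory epithelium. Of the kidney tubule markers 0 of 5 and of the airway and olfactory markers 0 of 4 reached 1 TPM, with the highest single value at 0.35 TPM. Within liver, the 4 Kupffer cell markers measured summed to 166.89 TPM in the KO pool and 148.39 TPM in the WT pool and lay above 0. The 4 endothelial markers summed to 97.72 and 110.50 TPM and lay below 0, the 3 stellate cell markers to 158.56 and 177.92 TPM, and the 5 cholangiocyte markers to 61.96 and 66.85 TPM. Cyp2a transcripts are hepatocyte transcripts in liver. The 10 hepatocyte markers changed between -0.28 for Tat and 0.09 for Fgb. Of the 4 Cyp2a genes, Cyp2a12 lay in that range, and Cyp2a4, Cyp2a5 and Cyp2a22 (-0.30) lay below it. The part of hepatocyte content in the changes of the Cyp2a genes was not tested.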

How the data were processed

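Pooled liver RNA of 5 KO and of 5 WT mice was sequenced as 1 paired-end library each (100 bases, Illumina HiSeq). Per the submitters' processing notes, CASAVA 1.8.2 made the reads, and the authors aligned them to mm10 with Bowtie and RSEM 1.2.09, which divides a read that fits several genes between them. The annotation release is not given in the sources used here. The authors deposited posterior mean TPM for 24054 genes, whose columns add up to 1005325 (KO) and 994702 (WT). Another table deposited by the authors gives, from EBSeq, a mean signal per library (estimated reads over a size factor) for 16318 genes, beside posterior probabilities and fold changes that were not used. Its first and second mean were taken as KO and WT from the order of the conditions in its name, which the study uses too. Columns of unmapped samples numbered 0.

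The change of a gene was taken as log2((KO TPM + 1)/(WT TPM + 1)), which understates changes of low genes. The most frequent low value of the means (1.16 in KO, 0.860 in WT) was taken as 1 read. Within 0.02, 78.4% of KO and 75.0% of WT values were whole reads, so reads are estimates and no count test was run. Intervals are exact Clopper-Pearson intervals at 95% of the ratio of means from rounded reads. No p-value was computed, for want of replicates. The script was tested on simulated data.

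The members and lists were chosen with earlier results of these data known. Genes named were all Cyp2a genes, Pgrmc1, expressed genes of the neighbours list, the highest, lowest and passing members of each other list and the 3 genes nearest in change to Cyp2a4 and to Cyp2a5; any other gene named, marker genes and the genes at the ends of the P450 range included, was chosen after its values were seen or belongs to a marker list. Transcripts were 1 per gene from GENCODE on GRCm38, and promoters came from RefSeq on GRCm38.p6. No protein letters are printed. Alternatives were a pseudocount of 0.1 TPM, minimums of 10 TPM and none, the authors' means, changes centred on the median, sums rescaled after leaving out the 50 most abundant genes, other folds and Cyp2a sums without Cyp2a4. Python 3.11.15, numpy 2.4.6, pandas 2.3.3, scipy 1.17.1, matplotlib 3.10.9 and Biopython 1.88 were used.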

Additional observations from a re-analysis of the deposited data

How the results depend on the processing

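No paired analysis was possible because there is 1 library for each genotype, which also leaves no replicate to leave out. The change of Cyp2a4 was -7.79 with 0.1 TPM added in place of 1. It was -8.35 with the authors' means and 1 added to each, beside -8.65 for their ratio with nothing added. A constant that is smaller beside the values understates the change of a low level less, and the means of Cyp2a4 are larger numbers than its TPM. The change of all Cyp2a TPM, with 1 TPM added to each sum, was -0.19 without Cyp2a4 in place of -0.34. Cyp2a5 ran from -0.59 to -0.57 and Cyp2a22 from -0.41 to -0.29 over the settings run on them, and Cyp2a12 stayed at or just below 0. Of all genes, 127 were up and 35 down. With folds of 2 and 0.5 the numbers were 31 and 13, with a minimum of 10 TPM 48 and 17, with 0.1 TPM 266 and 70, and with the authors' means 286 and 72. With a fold of 0.714, the mirror of the rise, as the limit for falls, 118 genes were down, Cyp2a5 among them. With a minimum of 10 TPM, 0 list members were down in place of 1. No value changed direction, and of the other values of lists 67 stayed close to the reported value and 5 moved. Depth limits Cyp2a4 in KO (3.81 estimated reads) and Cyp2a22, while pooling limits Cyp2a5 and Cyp2a12.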
